A study of Homo sapiens with 6 samples.

Results

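The S100 calcium-binding proteins described here are 10 genes, S100A2, S100A3, S100A4, S100A6, S100A7, S100A8, S100A9, S100A10, S100A11 and S100A16, chosen by gene symbol from the 58884 genes of the deposited table. Each symbol had 1 row, and all 10 passed the filter on low values, a mean normalized count of at least 10 over all libraries, which left 16701 genes for testing. RNA was sequenced from KYSE450, a human esophageal squamous cell carcinoma line with wild-type NRF2, and from KEAP1null-KYSE450, a derivative in which exon 2 of KEAP1 was targeted with CRISPR-Cas9. Each line had 3 libraries, and the cells of both lines were untreated and grown in RPMI1640 medium with fetal bovine serum. KEAP1null-KYSE450 is 1 expanded clone, so the effect of losing KEAP1 and other differences between that clone and the parental population cannot be told apart. The comparison asks which S100 transcripts differ when the brake on NRF2 is removed. Libraries are numbered 1 to 3 by their order in the table, which carries no replicate number, and the number is only a name. Nothing in the labels says that the 3 libraries of a line came from separate cultures, so the p-values measure the spread between these libraries, which may be technical.

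S100 proteins are small, mostly dimeric proteins with a pair of EF-hand loops that bind calcium, and binding opens a surface to which partner proteins attach. Inside the cell they act on annexins, myosin and ubiquitin ligase adaptors, and some are secreted and act on surface receptors. Squamous epithelia use many of them, with S100A7, S100A8 and S100A9 known for their rise in differentiating and inflamed epithelium and S100A2 for its expression in basal cells. KEAP1 is the adaptor that sends the transcription factor NRF2 for degradation, so its loss is known to stabilise NRF2.

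The 10 genes lie in the S100 cluster of chromosome 1 (hg38 coordinates throughout, gene spans from GENCODE release 44). S100A10 (chr1:151982915-151993859) and S100A11 (chr1:152032506-152047907) sit apart from the others, with a gap of 1309.9 kb to the next member. S100A9 (chr1:153357854-153361023), the only member on the plus strand, is followed by S100A8 (chr1:153390032-153391073) and S100A7 (chr1:153457744-153460651). The remaining members are S100A6 (chr1:153534599-153536244), S100A4 (chr1:153543613-153550136), S100A3 (chr1:153547329-153549258), S100A2 (chr1:153561108-153567890) and S100A16 (chr1:153606886-153613145). S100A3 lies within the span of S100A4 on the same strand, and the annotated exons of these neighbours share no bases. S100A6 shares 37 exon bases with a long noncoding RNA on the other strand, and whether the counting used strand is not given in the sources used here.

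RefSeq windows of 250 bases before to 50 bases after each annotated start (GRCh38.p14) were read for the 10 members, which had 14 windows, and searched on both strands. The bases just before the start are shown for the 5 members that fell past both a p and a fold change threshold, S100A2, S100A3, S100A7, S100A8 and S100A9, and for S100A4, S100A6 and S100A11, which did not. Capitals mark TGANTCA, the site bound by AP-1, in S100A2 and S100A3, the TATA box TATAAA in S100A9, S100A8, S100A7 and S100A4, and the GC box GGGCGG, with adjoining copies joined, in S100A3, S100A6 and S100A11. S100A2 and S100A8 had further annotated starts, which are not shown. The S100A2 window at start 153563887 held no TGANTCA, and the S100A8 window at start 153391188 held no TATAAA. Each sequence reads 5′ to 3′ on the strand of its gene and ends at the base before the start.
S100A2, chr1:153565845-153565904, minus strand: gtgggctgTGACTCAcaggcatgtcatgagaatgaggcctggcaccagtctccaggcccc
S100A3, chr1:153549259-153549498, minus strand: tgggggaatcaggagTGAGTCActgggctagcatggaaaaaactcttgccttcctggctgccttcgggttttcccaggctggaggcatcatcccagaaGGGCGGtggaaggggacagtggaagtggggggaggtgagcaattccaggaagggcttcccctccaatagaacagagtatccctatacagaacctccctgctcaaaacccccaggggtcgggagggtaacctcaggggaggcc
S100A9, chr1:153357794-153357853, plus strand: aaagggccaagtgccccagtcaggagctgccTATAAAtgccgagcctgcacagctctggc
S100A8, chr1:153391074-153391133, minus strand: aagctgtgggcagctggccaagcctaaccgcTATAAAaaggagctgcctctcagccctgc
S100A7, chr1:153460652-153460711, minus strand: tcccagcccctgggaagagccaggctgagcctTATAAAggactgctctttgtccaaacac
S100A4, chr1:153545807-153545866, minus strand: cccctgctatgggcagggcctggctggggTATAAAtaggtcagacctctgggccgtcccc
S100A6, chr1:153535992-153536091, minus strand: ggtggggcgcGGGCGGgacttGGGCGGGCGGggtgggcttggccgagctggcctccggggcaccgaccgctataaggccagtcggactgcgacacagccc
S100A11, chr1:152037005-152037104, minus strand: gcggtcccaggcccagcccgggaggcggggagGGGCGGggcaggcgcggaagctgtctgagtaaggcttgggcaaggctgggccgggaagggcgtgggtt

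TATAAA was present in 5 of the 14 member windows and in 11.5% of 35116 windows of all genes. The 5 windows belonged to 4 of the 10 members, S100A4, S100A7, S100A8 and S100A9, with 1 site of S100A8 counted in 2 overlapping windows. GGGCGG was present in 6 of the 14 member windows, those of S100A3, S100A6, S100A9, S100A10 and S100A11 and 1 of S100A16, and in 45.0% of all windows. TGANTCA was found in 2 of the 14 member windows, 1 of S100A2 and that of S100A3, against 7.71% of all windows. TGACNNNGC, the core of the antioxidant response element through which NRF2 acts and which can overlap TGANTCA, was found in 1 of the 14 member windows, for S100A16, against 13.3% of all windows. CG dinucleotides numbered 31 in the S100A6 window, 32 in that of S100A10 and 22 in that of S100A11, and the median over all windows was 14. The windows of the other members held fewer than that median whether the gene fell or not, with 5 and 4 for S100A2, 5 for S100A3, 3 for S100A7, 2 in each of those of S100A8, 5 for S100A9, 8 for S100A4, and 3 and 8 for S100A16. These matches describe letters in a window and no binding was measured.

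Of the 10 members, 5 fell and none rose by the rule of an adjusted p under 0.05 and a log2 fold change of at least 1 in size, in limma on log2(normalized count + 1) with Benjamini-Hochberg adjustment over the 16701 genes. The genes that fell were S100A2, S100A3, S100A7, S100A8 and S100A9. Of these, S100A7, S100A8 and S100A9 passed the filter on low values through KYSE450 alone, with KEAP1null-KYSE450 means of 2.02, 0.340 and 1.99. At such means a gene could pass the filter only by being higher in KYSE450, so the filter fixed their direction. Over all tested genes, 18.2% passed this rule, 5.98% as lower and 12.2% as higher in KEAP1null-KYSE450. That split, 2045 higher and 999 lower, was 1388 and 1289 under quantile normalization, with the members still at 0 and 5. The count of 0 higher members in limma was also 0 in edgeR and DESeq2 on 6 libraries and 1 in edgeR on 4, and at an unadjusted p under 0.05 in limma it was 0 with the fold change threshold and 2 without it. By adjusted p alone, 6 members were lower and 2 higher, where 25.5% of all genes were lower and 24.3% higher, 49.8% together. S100A11 was the sixth lower member, and S100A4 and S100A16 were the higher ones. The 3 libraries of one line lay wholly below or above those of the other for 9 members, 7 lower and 2 higher in KEAP1null-KYSE450, compared with 29.3% of all genes lower and 28.4% higher, 57.8% in all. The median log2 fold change of the members was -1.22, and that of all tested genes was 0.004.

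**Figure D1:**
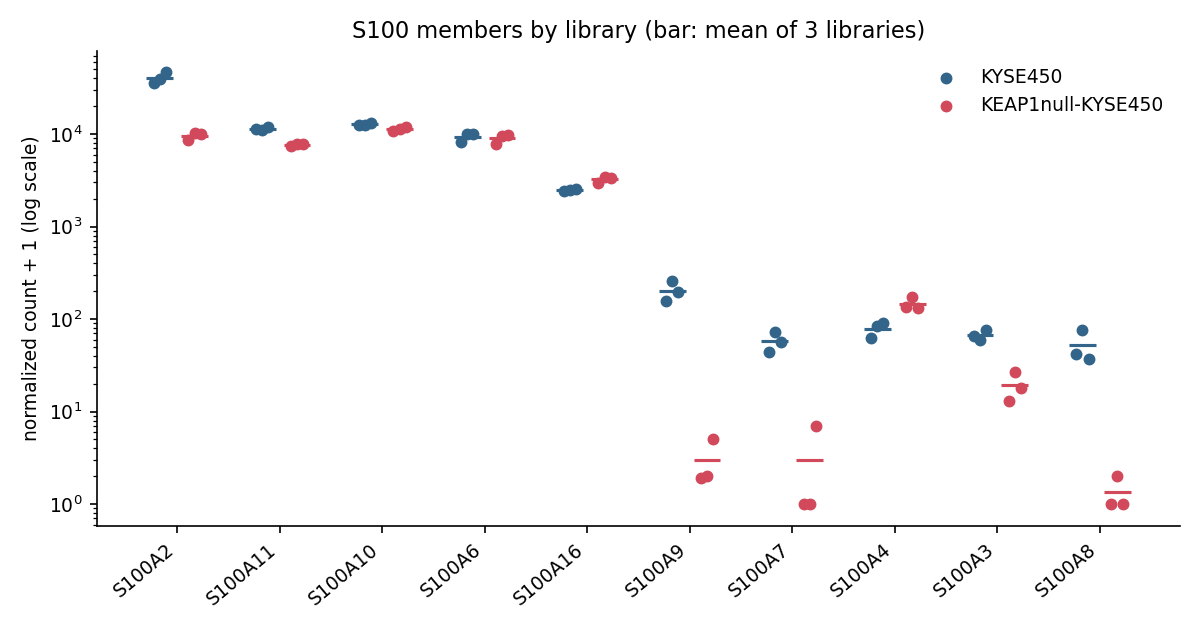
Normalized count plus 1 of each member in each library on a log axis, with KYSE450 in blue, KEAP1null-KYSE450 in red and bars at the mean of 3 libraries. S100A2 dropped from 35219 or more to 10269 or less, S100A7, S100A8 and S100A9 lie near the bottom in KEAP1null-KYSE450, and S100A6 overlaps between the lines.

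S100A8 and S100A9 form calprotectin, the heterodimer that chelates zinc and manganese, and both were almost lost in KEAP1null-KYSE450. S100A9 had normalized counts of 157, 255 and 194 in KYSE450 and 0.923, 1.02 and 4.04 in KEAP1null-KYSE450. Its mean went from 202 ± 49.2 to 1.99 ± 1.77 (SD, n = 3 libraries each), a log2 fold change of -6.21 (SE 0.47, 95% interval -7.22 to -5.19, limma adjusted p = 4.4e-07). In whole reads, which can be read back from the steps in the table, this was 607 reads against 6, a rate ratio of 103 with an exact 95% interval of 47.1 to 282. Such intervals cover counting error only. They include KYSE450 library 2 and KEAP1null-KYSE450 library 3, whose steps were too close to 1 to be certain.

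S100A8 had 40.6, 75.8 and 36.4 normalized counts in KYSE450, and in KEAP1null-KYSE450 it was at 0 in 2 libraries and at 1.02 in library 2. The means were 50.9 ± 21.6 and 0.340 ± 0.589 (SD, n = 3), with a log2 fold change of -5.28 (SE 0.66, 95% interval -6.72 to -3.85, limma adjusted p = 3.7e-05). The single read in KEAP1null-KYSE450 against 152 in KYSE450 gave a rate ratio of 155, with an exact 95% interval from 27.4 to 6162. Every KYSE450 library lay above every KEAP1null-KYSE450 library for both subunits. Within KYSE450 the S100A9 to S100A8 ratio of normalized counts, not corrected for length, was 3.87, 3.36 and 5.33.

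S100A7, psoriasin, is a secreted antimicrobial protein of keratinocytes. It stood at 42.8, 71.8 and 55.0 normalized counts in KYSE450, at 0 in KEAP1null-KYSE450 libraries 1 and 2, and at 6.05 in library 3. The means were 56.5 ± 14.6 and 2.02 ± 3.49 (SD, n = 3), and the log2 fold change was -4.88 (SE 0.76, 95% interval -6.53 to -3.22, limma adjusted p = 2.1e-04). All 6 reads of KEAP1null-KYSE450 came from library 3, against 170 reads in KYSE450, a rate ratio of 28.9 with an exact 95% interval of 13 to 79.8. Without that library the log2 fold change was -5.82. S100A7 has close paralogs, S100A7A and S100A7L2, among which reads could have been divided. S100A7A was at 2.02 in KYSE450 library 2 and at 0 elsewhere, and S100A7L2 was at 0 in every library.

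The fitted size of the fall of these 3 genes moved with the pseudocount. Between pseudocounts of 0.1 and 10 the log2 fold change went from -6.88 to -4.13 for S100A9, from -7.75 to -2.50 for S100A8 and from -7.13 to -2.48 for S100A7. In edgeR on 6 libraries it was -6.57 for S100A9, -6.80 for S100A8 and -4.73 for S100A7. In edgeR on the 4 libraries whose reads could be recovered without doubt it was -7.30, -5.95 and -8.63. Those 4 leave out KYSE450 library 2 and KEAP1null-KYSE450 library 3. The KEAP1null-KYSE450 libraries kept held 0 reads of S100A7, so -8.63 has no reads on that side. All 3 genes passed both thresholds in each of the other settings in which they were tested. Myeloid cells are the other main source of S100A8 and S100A9. Of 7 myeloid markers, 1 was abundant enough to be tested, ITGAM, at 28.9, 8.09 and 28.9 in KYSE450 and 4.61, 2.04 and 1.01 in KEAP1null-KYSE450, with a log2 fold change of -2.63 (limma adjusted p = 0.0092). At its KEAP1null-KYSE450 mean of 2.55, ITGAM could pass the filter only by being higher in KYSE450, so the filter fixed its direction too. The 7 markers summed to 27.3 to 31.0 per KYSE450 library and to 7.14 to 19.4 per KEAP1null-KYSE450 library. MPO was at 0 in all libraries, and PTPRC, the common leukocyte antigen, was at 1.07, 8.09 and 0 in KYSE450 and at 0, 0 and 1.01 in KEAP1null-KYSE450. CD14 was at 1.07, 7.08 and 0 in KYSE450 and 0.923, 0 and 2.02 in KEAP1null-KYSE450. LYZ, lysozyme, was the other way round without overlap, at 0, 3.03 and 0 in KYSE450 and 10.2, 4.08 and 9.08 in KEAP1null-KYSE450. CSF1R had a mean of 0.311 in KYSE450 and 1.57 in KEAP1null-KYSE450, and CSF3R was at 1.01 in KYSE450 library 2 and at 0 elsewhere. Among the KYSE450 libraries, library 2 had the highest S100A7, S100A8, S100A9, PTPRC and CD14 and the lowest ITGAM. The part of such RNA in these results was not tested, and without KYSE450 library 2 the log2 fold changes were -6.03 for S100A9, -4.96 for S100A8 and -4.69 for S100A7. In such bulk samples, fewer cells expressing a gene and less RNA per cell cannot be told apart.

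S100A2, a mostly nuclear S100 protein of basal squamous cells, was the most abundant member in KYSE450 and fell 4.2-fold. Its normalized counts were 35219, 39573 and 46445 in KYSE450 and 8660, 10269 and 9930 in KEAP1null-KYSE450. The means were 40412 ± 5660 and 9620 ± 848 (SD, n = 3), with a log2 fold change of -2.07 (SE 0.12, 95% interval -2.32 to -1.81, limma adjusted p = 2.8e-08). The gap between the lines was several times the spread within either. Over 17 other settings the log2 fold change stayed between -2.16 and -1.93.

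S100A3, a cysteine-rich member known from the hair cuticle, was lower at a much lower level. It had 65.2, 58.6 and 75.5 normalized counts in KYSE450 and 12, 25.5 and 17.2 in KEAP1null-KYSE450. The means were 66.5 ± 8.51 and 18.2 ± 6.81 (SD, n = 3), with a log2 fold change of -1.87 (SE 0.36, 95% interval -2.65 to -1.08, limma adjusted p = 9.8e-04). The libraries did not overlap, but the fall was not shown to exceed 2-fold when that was tested directly, with limma's adjusted p = 0.19.

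S100A4, also called metastasin, binds non-muscle myosin and is known for its part in cell motility. Its normalized counts were 61.0, 82.9 and 89.5 in KYSE450 and 134, 174 and 131 in KEAP1null-KYSE450. The means were 77.8 ± 14.9 and 146 ± 24.2 (SD, n = 3), a log2 fold change of 0.91 (SE 0.23, 95% interval 0.40 to 1.42, limma adjusted p = 0.0063), so that S100A4 passed the adjusted p and not the fold change threshold. Without KYSE450 library 3 it passed both, at 1.02 with limma's adjusted p = 0.0058. Under quantile normalization it was 0.57 and no longer passed, with limma's adjusted p = 0.060. S100A4 and S100A3 share a stretch of the cluster but moved apart, and the ratio of S100A4 to S100A3 normalized counts, not corrected for length, was 0.934, 1.41 and 1.19 in KYSE450 and 11.2, 6.84 and 7.65 in KEAP1null-KYSE450.

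S100A16, a broadly expressed member, was at 2442, 2479 and 2574 in KYSE450 and at 2953, 3454 and 3375 in KEAP1null-KYSE450. The means were 2498 ± 68.4 and 3260 ± 269 (SD, n = 3), with a log2 fold change of 0.38 (SE 0.10, 95% interval 0.17 to 0.59, limma adjusted p = 0.0059). This small rise separated the libraries of the lines without overlap. In edgeR on the 4 libraries whose reads could be recovered without doubt it was 0.39 and did not pass, with edgeR's adjusted p = 0.081.

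S100A10, the partner of annexin A2 and the member that has lost calcium binding, was at 12652, 12477 and 13274 in KYSE450 and 10759, 11437 and 11880 in KEAP1null-KYSE450. The libraries did not overlap, yet the log2 fold change of -0.17 (SE 0.09, 95% interval -0.37 to 0.02) did not pass, with limma's adjusted p = 0.12. S100A11, a partner of annexin A1 with roles in membrane repair, was at 11427, 10947 and 11853 in KYSE450 and 7400, 7718 and 7799 in KEAP1null-KYSE450. It fell by 0.58 on the log2 scale (SE 0.09, 95% interval -0.77 to -0.39, limma adjusted p = 1.5e-04), from 11409 ± 453 to 7639 ± 211 (SD, n = 3), which passed the adjusted p and not the fold change threshold.

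S100A6, calcyclin, was the member with the least difference. It was at 8140, 9928 and 9976 in KYSE450 and 7746, 9493 and 9731 in KEAP1null-KYSE450, and the ranges overlapped. The log2 fold change was -0.06 (SE 0.12, 95% interval -0.31 to 0.19, limma adjusted p = 0.70). The sign of so small a value changed under quantile normalization, to 0.13, as did that of S100A10, to 0.02.

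Per kilobase of annotated exon, S100A2 led in KYSE450 at 26140 ± 3661 normalized counts per kb, ahead of S100A11 at 17579 ± 698, S100A10 at 12649 ± 414 and S100A6 at 9627 ± 1078 (SD, n = 3). S100A16 at 1469 and S100A9 at 352 followed, each clear of its neighbours. S100A7 at 116, S100A4 at 82.2, S100A3 at 79.0 and S100A8 at 57.2 overlapped, each with the next. In KEAP1null-KYSE450 the order was S100A11 at 11771 and S100A10 at 11224, which overlapped, then S100A6 at 9259 and S100A2 at 6222. S100A16 came next at 1917, then S100A4 at 155 and S100A3 at 21.7. S100A7 at 4.15 and S100A9 at 3.48 overlapped, and S100A8 was last at 0.381. These last places rest on 6 reads each for S100A7 and S100A9 and 1 read for S100A8, so their order is uncertain. S100A2 thus moved from the first place to the fourth.

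The summed level of the 10 members per kb was 63259, 67311 and 73886 in KYSE450 and 37507, 41860 and 42365 in KEAP1null-KYSE450. S100A2 made up 36.0%, 38.0% and 40.7% of that sum in KYSE450 and 14.9%, 15.9% and 15.2% in KEAP1null-KYSE450. The sum of the normalized counts of the other 9 members, not length-corrected, was 35028 to 38128 in KYSE450 and 29005 to 32944 in KEAP1null-KYSE450. S100A2 took the larger part of the drop in the total.

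**Figure D2:**
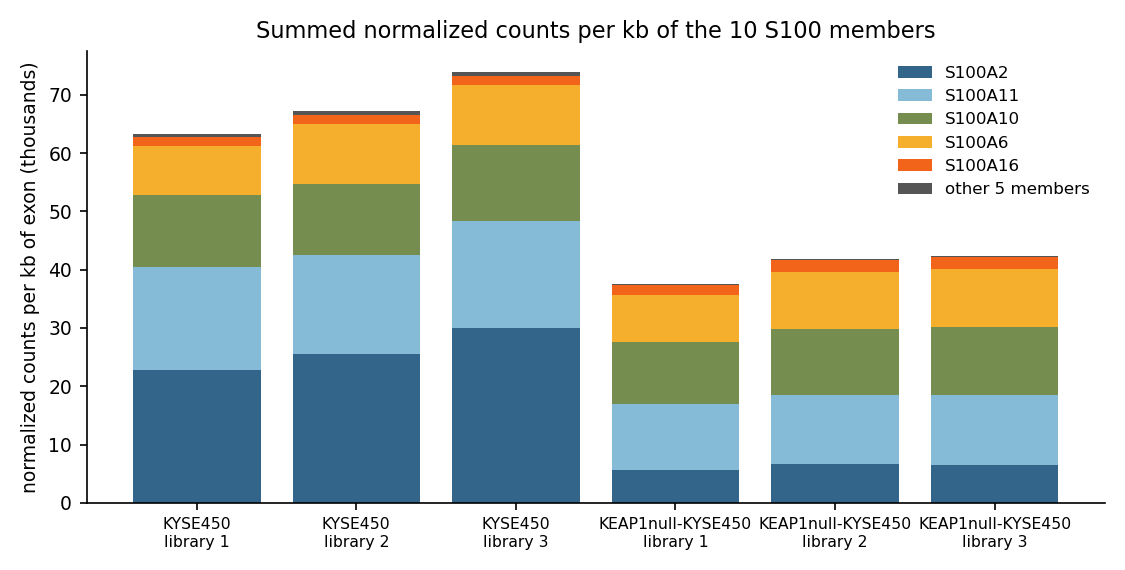
Normalized counts per kb of exon of the members stacked by library, with the 5 least abundant members joined. The KYSE450 stacks reach 63259 to 73886 and the KEAP1null-KYSE450 stacks 37507 to 42365, and the S100A2 segment shrinks most.

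Along the chromosome, S100A3 and S100A2, which fell past both thresholds, lay between S100A4 and S100A16, which did not. The 66 tested genes within 1 Mb of a member that are not S100 genes had log2 fold changes centred on -0.60 (median), with quartiles of -0.92 and -0.27, while the median of the other 16623 genes was 0.006. Of the 66, 39 were lower and 6 higher by adjusted p, where 25.5% of all tested genes were lower and 24.3% higher. The difference from the neighbours' median was -5.60 for S100A9, -4.68 for S100A8, -4.27 for S100A7, -1.46 for S100A2 and -1.26 for S100A3. S100A11 lay at the median, with a difference of 0.03, while S100A10, S100A6, S100A16 and S100A4 lay above it by 0.43, 0.55, 0.98 and 1.51. The number of neighbours with a log2 fold change below the member was 1 for S100A9, 2 for S100A8, 3 for S100A7, and 4 each for S100A2 and S100A3. These 4 neighbours were SPRR1B at -7.21, SPRR3 at -5.79, SPRR2A at -5.19 and SPRR1A at -4.78, so such deep falls were not limited to S100 genes. Of the 42 neighbours with a mean of at least 100, 97.6% had a log2 fold change below 0, and their median was -0.68. S100A4 and S100A16 were higher in KEAP1null-KYSE450 by adjusted p alone, S100A4 not under quantile normalization.

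**Figure D3:**
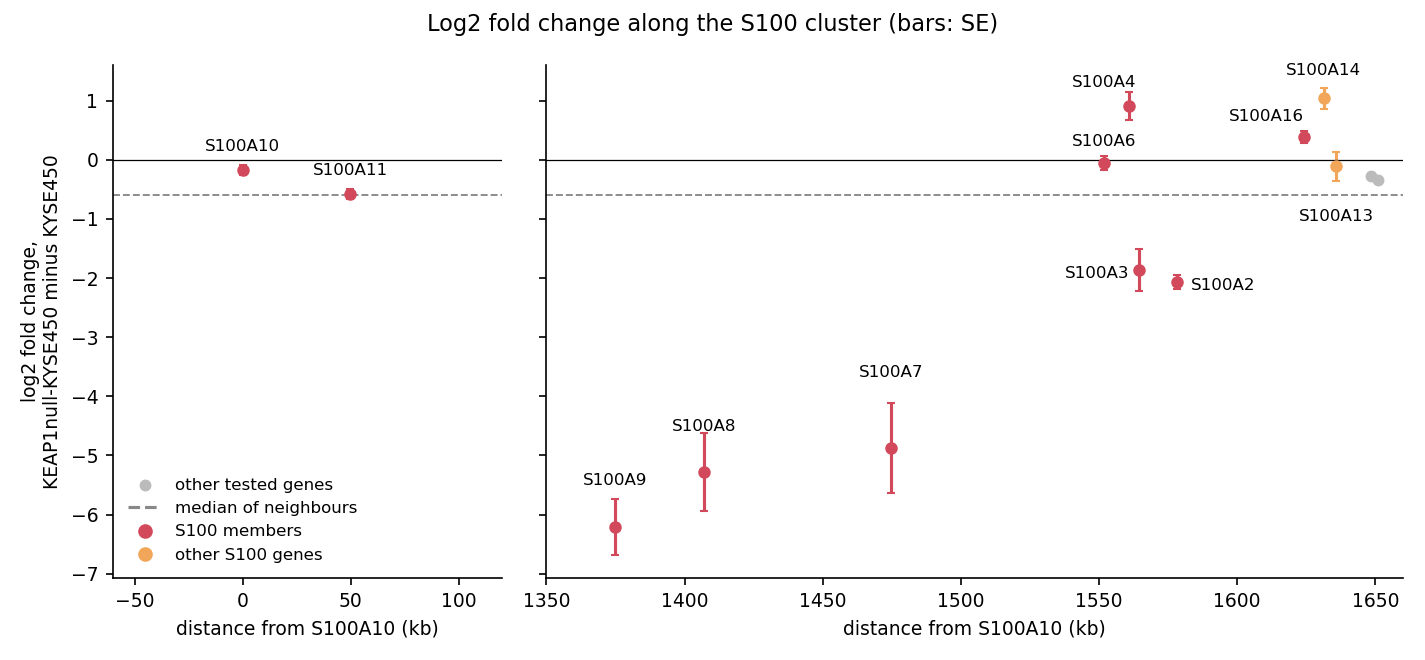
Log2 fold change of S100 genes and of other tested genes against distance from S100A10 in kb, with bars at 1 SE and a dashed line at the median of the neighbours, -0.60. S100A9, S100A8 and S100A7 at 1374.9 to 1474.8 kb lie lowest, and S100A4 at 1560.7 kb lies above the line next to S100A3 and S100A2 below it.

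Of 11 other S100 genes, 2 were abundant enough to be tested. S100A14, which lies beside S100A16, was at 143 ± 12.9 in KYSE450 and 296 ± 38.0 in KEAP1null-KYSE450 (SD, n = 3), with a log2 fold change of 1.04 (SE 0.17, limma adjusted p = 3.6e-04), and was under 1 in size in some settings, 0.82 under quantile normalization. S100A13 was at 303 ± 65 and 285 ± 88.9, with a log2 fold change of -0.11 (SE 0.24, limma adjusted p = 0.72). S100P was under the filter, at 5.35, 4.04 and 4.66 in KYSE450 and 12.9, 13.3 and 18.2 in KEAP1null-KYSE450, and without the filter its log2 fold change of 1.46 did not pass, with limma's adjusted p = 0.080. S100A1 did not exceed 4.08 and S100A5 did not exceed 3.03 in any library. S100A7L2, S100A12, S100B, S100G and S100Z were at 0 in all 6 libraries.

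The fused-type S100 genes, large keratinocyte proteins that begin with an S100 domain, lie in the epidermal differentiation region of the same arm. Of 7, 2 were tested: TCHH, trichohyalin, was at 13.3 ± 3.78 and 55.7 ± 12.1 (SD, n = 3), with a log2 fold change of 2.00 (limma adjusted p = 9.5e-04), and FLG, filaggrin, at 18.3 and 13.4 did not pass, with limma's adjusted p = 0.48. FLG2, HRNR and CRNN were at 0 in every library.

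The proteins that S100 members bind were described from a list of 18 partners and 4 receptors. All 18 partners were tested, and 2 rose and 5 fell past both thresholds, where 12.2% of all tested genes rose and 5.98% fell. By adjusted p alone 3 were higher, 12 lower and 3 did not pass, where 24.3% of all tested genes were higher and 25.5% lower. The median log2 fold change of the partners was -0.37. ANXA11 and COPS5 were among those that did not pass. ANXA1, the annexin bound by S100A11, was at 38362 ± 6659 in KYSE450 and 100122 ± 10646 in KEAP1null-KYSE450 (SD, n = 3), a rise of 1.39 on the log2 scale (SE 0.14, limma adjusted p = 4.9e-06). The ratio of ANXA1 to S100A11, not length-corrected, went from 2.83, 3.40 and 3.84 to 11.9, 14 and 13.3. ANXA6, another annexin, rose by 1.09 (limma adjusted p = 7.9e-06).

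ANXA2, the annexin bound by S100A10, was at 121721 ± 10826 in KYSE450 and 94851 ± 5009 in KEAP1null-KYSE450, a log2 fold change of -0.36 (limma adjusted p = 0.023). Its ratio to S100A10, not length-corrected, was 8.64, 10.1 and 9.74 in KYSE450 and 8.42, 8.78 and 7.88 in KEAP1null-KYSE450, overlapping. PLAT, tissue plasminogen activator, which the annexin A2 and S100A10 complex binds, fell by 3.05 on the log2 scale (SE 0.27, limma adjusted p = 2.1e-06), and PLAUR, the urokinase receptor, fell by 2.73 (SE 0.23, limma adjusted p = 1.5e-06). PLAU, urokinase, named after its values were seen, was higher by 0.57 (limma adjusted p = 0.0030).

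MYH9, the non-muscle myosin heavy chain bound by S100A4, was at 46157 ± 13027 in KYSE450 and 21904 ± 2678 in KEAP1null-KYSE450 (SD, n = 3), a log2 fold change of -1.05 (SE 0.16, limma adjusted p = 2.1e-04). The ratio of MYH9 to S100A4, not length-corrected, went from 1004, 464 and 434 to 187, 117 and 155. KYSE450 library 1, which gave the 1004, had MYH9 at 61198, against 38430 and 38845 in libraries 2 and 3. AHNAK, a large scaffold bound by S100A10, fell by 1.11 (SE 0.24, limma adjusted p = 0.0019), from 19916 ± 8270 to 8893 ± 2199 (SD, n = 3). Both fell short of the thresholds in 4 other settings each. DLC1, a GTPase-activating protein bound by S100A10, was at 48.1 in KYSE450 and 9.66 in KEAP1null-KYSE450, lower by 2.43 (SE 0.52, limma adjusted p = 0.0021). With a KEAP1null-KYSE450 mean under 10, DLC1 could pass the filter only by being higher in KYSE450. The filter thus fixed the direction of this 1 of the 5 partners that fell. CACYBP, the calcyclin-binding protein of S100A6, was at 22660 and 13322, a log2 fold change of -0.76 (limma adjusted p = 7.5e-05). Among the receptors, 3 of 4 were tested and BSG, basigin, fell, from 28248 ± 3715 to 11625 ± 2148 (SD, n = 3) with a log2 fold change of -1.29 (SE 0.13, limma adjusted p = 8.3e-06). AGER, the receptor for advanced glycation end products, was at -0.32 (limma adjusted p = 0.31) and NPTN at -0.12 (limma adjusted p = 0.42). TLR4, a receptor for S100A8 and S100A9, was at 0 in all but 1 library.

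**Figure D4:**
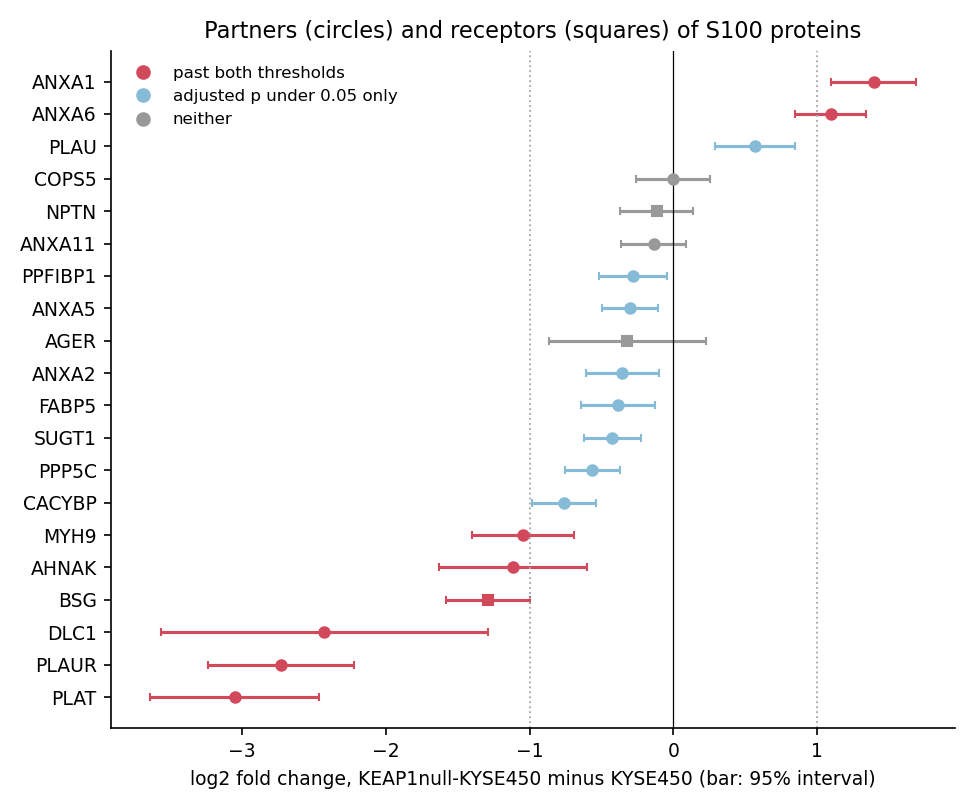
Log2 fold change of the partners reported here (circles) and receptors (squares) of S100 proteins with 95% intervals, red past both thresholds, blue past the adjusted p alone and grey for neither. ANXA1 at 1.39 and ANXA6 at 1.09 lie highest, and PLAT at -3.05 and PLAUR at -2.73 lowest.

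The lines also differed in other epithelial genes. Of 7 squamous markers, 6 were lower and 1 higher by adjusted p, with KRT6A at -4.70, KRT17 at -4.85 and PKP1 at -2.95 on the log2 scale among the lower and KRT5 at 1.46 the higher. Over all tested genes, 25.5% were lower and 24.3% higher by adjusted p. The summed level of the 7 markers was 358871 to 499566 in KYSE450 and 556637 to 693964 in KEAP1null-KYSE450. KRT5 made up most of the sum in KEAP1null-KYSE450, with a mean of 568248 there and 208100 in KYSE450. The 4 simple epithelial markers summed to 180188 to 200975 and to 284142 to 328806. Of these, KRT8 and KRT18 were higher by adjusted p, and KRT19 and EPCAM did not pass. KEAP1 transcript itself was at 5760, 5226 and 5146 in KYSE450 and 5737, 4906 and 5317 in KEAP1null-KYSE450, a log2 fold change of -0.02 (SE 0.10, limma adjusted p = 0.90). An edit that shifts the reading frame need not change the amount of transcript, so this level is no check of the labels. The libraries held 53027359 to 61543442 recovered reads, and their summed normalized counts ran from 54829313 to 57380170. At this depth 3 reads correspond to 2.77 to 3.21 normalized counts.

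For each member past both thresholds, the gene of mean at least 100 with the most similar centred log2 values over the 6 libraries was found by Euclidean distance. It was GNG4 for S100A2 (distance 0.22, log2 fold change -2.17), ZNF814 for S100A3 (0.42, -1.72), LMCD1 for S100A7 (1.53, -4.02), IRX4 for S100A8 (0.99, -5.01) and LNCAROD for S100A9 (1.36, -6.07). These distances describe 6 values per gene.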

How the data were processed

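Bulk RNA-seq of KYSE450 and KEAP1null-KYSE450 (3 libraries each) was analysed from the deposited normalized counts, a non-negative signal. The authors normalized the matrix by a method not given in the sources used here, and the deposited values step as whole reads times 1 factor per library. The submitters' processing notes name FastQC 0.11.5, cutadapt 1.12, STAR 2.6.90c and featureCounts 1.5.1 with the builds hg38 and mm10; human hg38 was used here, and 16630 of 16701 tested Ensembl identifiers matched GENCODE 44. The study's methods name a RefSeq annotation, whereas the table carries Ensembl identifiers. Whole reads were read back from the smallest step in each column (100% of values whole within 0.01 reads). In 2 libraries, KYSE450 library 2 and KEAP1null-KYSE450 library 3, the step (1.011 and 1.009) was too close to 1 to be certain under the cutoff used here. These entered the count tests on 6 libraries and the read counts and exact intervals given for members.

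Normalized counts were tested with limma 3.58.1 (R 4.3.3) on log2(value + 1), eBayes with trend, for 16701 genes with a mean of at least 10, with Benjamini-Hochberg adjustment. A gene was called at adjusted p under 0.05 and log2 fold change of at least 1 in size. In a simulation of 3 against 3 libraries over 16701 genes, limma recovered 200 of 200 changed genes with 2 false calls. The planted changes were larger than the threshold and every gene had the same dispersion. The simulation therefore checked that the code ran properly and measured no error rate for these data. Fold changes on this scale understate changes of low genes. edgeR 4.0.16 (quasi-likelihood) on the reads of 6 libraries called 2094 genes higher and 929 lower, and DESeq2 1.42.0 called 2043 and 988. Other alternatives were pseudocounts of 0.1 and 10, no filter or a mean of 100, rescaling to equal totals, quantile normalization, no trend, a test against a 2-fold change, no fold change cutoff, and leaving out each library.

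The members, lists, markers and tests were chosen with earlier results of these data known. Members, KEAP1 and other S100 genes were all named. Of the fused-type genes, partners and receptors, those past both thresholds and up to 4 others by mean were to be named. That rule was not fully followed: FLG2, HRNR and CRNN were named and RPTN and TCHHL1 were not, and COPS5 and PLAU were added. Values of 1 gene of the partner list are not reported here, though it is in the counts. Protein sequences were not used.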

Additional observations from a re-analysis of the deposited data

How the results depend on the processing

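The count of 5 lower members held in all but 1 of 18 other settings within 1.5 times, and was 2 when a mean of at least 100 was required, since S100A3, S100A7 and S100A8 then left the test. The count of higher members was 0 and became 1 in edgeR on the 4 libraries with reads recovered without doubt (chosen after seeing the data) and 2 with no fold change cutoff; leaving out each library gave 0 to 1, the 1 being S100A4 without KYSE450 library 3. Over all tested genes, those higher were 875 under the minimum mean of 100, 626 in the test against a 2-fold change and 4060 with no cutoff, and those lower were 395 and 4251 in the last 2. Quantile normalization gave 1388 higher and 1289 lower, against 2045 and 999. The log2 fold change of S100A6 turned to 0.13 under quantile normalization and ranged from -0.154 to 0.046 on leaving out each library (positive without KEAP1null-KYSE450 library 1), and that of S100A10 turned to 0.017 under quantile normalization; the cause was not tested. No paired analysis was possible because the columns carry no replicate number. S100A7, S100A8 and S100A9 rest on few reads in KEAP1null-KYSE450, so their folds are imprecise.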
